A study of Homo sapiens with 12 samples.

Results

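The genes described here encode the subunits of the hypoxia-inducible factors (HIFs), the coactivators that they recruit, and CITED2, which competes for those coactivators. They were chosen by name, as the rows of the deposited tables whose gene symbol is HIF1A, EPAS1, HIF3A, ARNT, ARNT2, CITED2, CREBBP or EP300, which gave 8 of the 25369 genes listed. The tables came from poly(A)+ RNA-seq of 3 human cancer cell lines, RKO (colon carcinoma), A549 (lung adenocarcinoma) and H460 (large cell lung carcinoma). Each line was kept in normoxia or exposed to hypoxia (1% O2) for 24 h, in 2 independent biological replicates, so that 12 libraries formed 6 groups. No line carried an added allele or agent, and each group is a culture of 1 established line. RKO and A549 cells were grown in DMEM and H460 cells in RPMI, so line and medium cannot be told apart in a comparison with H460.

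A HIF is a heterodimer of an oxygen-regulated alpha subunit and a stable beta subunit. With oxygen present, prolyl hydroxylases mark the alpha subunits for VHL-dependent degradation. In hypoxia the alpha protein accumulates, pairs with the beta subunit, binds DNA and recruits the acetyltransferases CBP and p300. HIF1A encodes HIF1-alpha, EPAS1 encodes HIF2-alpha, and HIF3A encodes a further alpha subunit with inhibitory splice forms. ARNT and ARNT2 encode the beta subunits, CREBBP and EP300 encode CBP and p300, and CITED2 encodes a small protein that competes with HIF alpha subunits for the same domain of CBP and p300. Oxygen acts on the alpha subunits mainly at the protein level, and only RNA was measured here.

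DNA before the start sites of 4 members called in at least 1 line is shown because HIFs bind a short core motif, ACGTG or GCGTG. ARNT2 was also called, but no window of it was used here. The sequences are the 250 bases before a RefSeq start on GRCh38, 5′ to 3′ on the strand of the gene, with each match to the motif on either strand in capitals. Where RefSeq lists several starts, the most upstream one is given. The windows are chr6:139374649-139374898 (minus strand), chr2:46297157-46297406 (plus strand), chr1:150876600-150876849 (minus strand) and chr14:61695263-61695512 (plus strand).
CITED2: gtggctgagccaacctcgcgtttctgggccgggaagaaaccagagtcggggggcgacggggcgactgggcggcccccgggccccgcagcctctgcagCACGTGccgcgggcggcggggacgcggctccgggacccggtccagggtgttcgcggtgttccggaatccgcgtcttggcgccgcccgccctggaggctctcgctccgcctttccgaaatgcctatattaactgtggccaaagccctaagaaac
EPAS1: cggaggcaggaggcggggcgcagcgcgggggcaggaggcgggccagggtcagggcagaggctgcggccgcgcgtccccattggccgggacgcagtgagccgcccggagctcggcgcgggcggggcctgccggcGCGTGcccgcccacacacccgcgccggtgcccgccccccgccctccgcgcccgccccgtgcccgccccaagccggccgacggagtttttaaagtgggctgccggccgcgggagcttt
ARNT: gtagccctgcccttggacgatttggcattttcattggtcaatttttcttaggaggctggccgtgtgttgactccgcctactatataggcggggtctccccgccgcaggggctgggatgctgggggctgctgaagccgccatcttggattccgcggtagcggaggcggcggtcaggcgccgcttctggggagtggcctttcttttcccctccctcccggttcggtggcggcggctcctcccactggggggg
HIF1A: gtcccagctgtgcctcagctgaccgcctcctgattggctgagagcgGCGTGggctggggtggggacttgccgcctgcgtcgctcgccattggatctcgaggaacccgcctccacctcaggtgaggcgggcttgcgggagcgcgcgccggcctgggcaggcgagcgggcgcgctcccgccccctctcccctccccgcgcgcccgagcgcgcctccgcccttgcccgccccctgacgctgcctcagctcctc
The CITED2 window held the palindrome CACGTG, which is read as 2 overlapping matches, one per strand, from positions -153 and -152 relative to the start. EPAS1 had 1 match at position -117 and HIF1A 1 at position -204, while the ARNT window had 0. The same letters occurred in 43.2% of the 35116 RefSeq promoter windows of this length, so a match is common and is given as a description only. Of the other members, CREBBP had 3 matches, EP300 had 0 and HIF3A had 3 in the most upstream window.

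The libraries held between 27350424 and 41757584 counted reads. Levels are given as RPKM (reads normalised to exon length and to the total of counted reads) rescaled by TMM factors, which correct for libraries that differ in composition, and can therefore be compared between genes and libraries. The TMM factors of the H460 hypoxia libraries were 0.786 and 0.829, against 0.963 to 1.12 in the other 10 libraries. Scaling by library size alone would lower the median log2 fold change of all genes in H460 by 0.35, and would move it by 0.08 in RKO and -0.09 in A549. Of 5 epithelial markers, 3 were over a mean of 1 RPKM in RKO and H460 and 4 in A549. CDX2 was the only one of 5 colon markers over 1 RPKM in RKO (6.52 in normoxia and 4.68 in hypoxia), while VIL1 and CDX1 were at 0 there. Of 5 lung markers, NAPSA was the only one over 1 RPKM in A549 (means of 2.57 in normoxia and 3.29 in hypoxia), and SFTPB, SFTPC, SFTPA1 and NKX2-1 were under 0.1 there. In H460, 0 of the 5 were over 1 RPKM in normoxia and NKX2-1 was in hypoxia, at 1.46 and 1.36. The summed blood and endothelial markers did not exceed 0.0150 and 0.106 RPKM in any library. COL1A1, a fibroblast marker, was at 7.92 and 14.0 RPKM in normoxic A549 libraries and at 21.9 and 72.4 in hypoxic ones, while COL1A2 and COL3A1 stayed under 0.1 RPKM there. In RKO it was at 0.0583 and 0.0762 RPKM in normoxia and at 0.291 and 0.337 in hypoxia. In H460, 3 of 4 fibroblast markers (COL1A1, COL3A1 and PDGFRB) were over 1 RPKM in both conditions, with sums of 5.76 to 6.60 in normoxia and 5.31 to 8.04 in hypoxia. The part of these markers in the results was not tested.

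To ask which members changed with oxygen, hypoxia was compared with normoxia separately for RKO, A549 and H460, with 4 libraries in each fit. A gene was called at an edgeR adjusted p under 0.1 with a fold change over 1.5, and 7 of the 8 members were abundant enough to be tested in each line. In RKO, 2 members were called higher (EPAS1 and CITED2) and 2 lower (HIF1A and ARNT2), where 18.8% of 12817 genes were called higher and 15.1% lower. In A549, 0 members were called higher, where 2.22% of 14251 genes were, and 1 was called lower (HIF1A), where 0.456% were. DESeq2 also called 0 higher in A549. In the edgeR fit of A549, CITED2 had an unadjusted p of 0.0155, as the only member under 0.05 with a positive fold change. In H460, 3 members were called higher (EPAS1, ARNT and CITED2) and 1 lower (ARNT2), where 24.6% of 14080 genes were called higher and 27.3% lower. For RKO, A549 and H460 the tested members had median log2 fold changes of 0.20, -0.12 and 0.34, against 0.01, -0.01 and -0.04 over all genes tested. A lower level in bulk RNA can mean fewer cells with the transcript or less RNA per cell, which cannot be told apart.

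**Figure D1:**
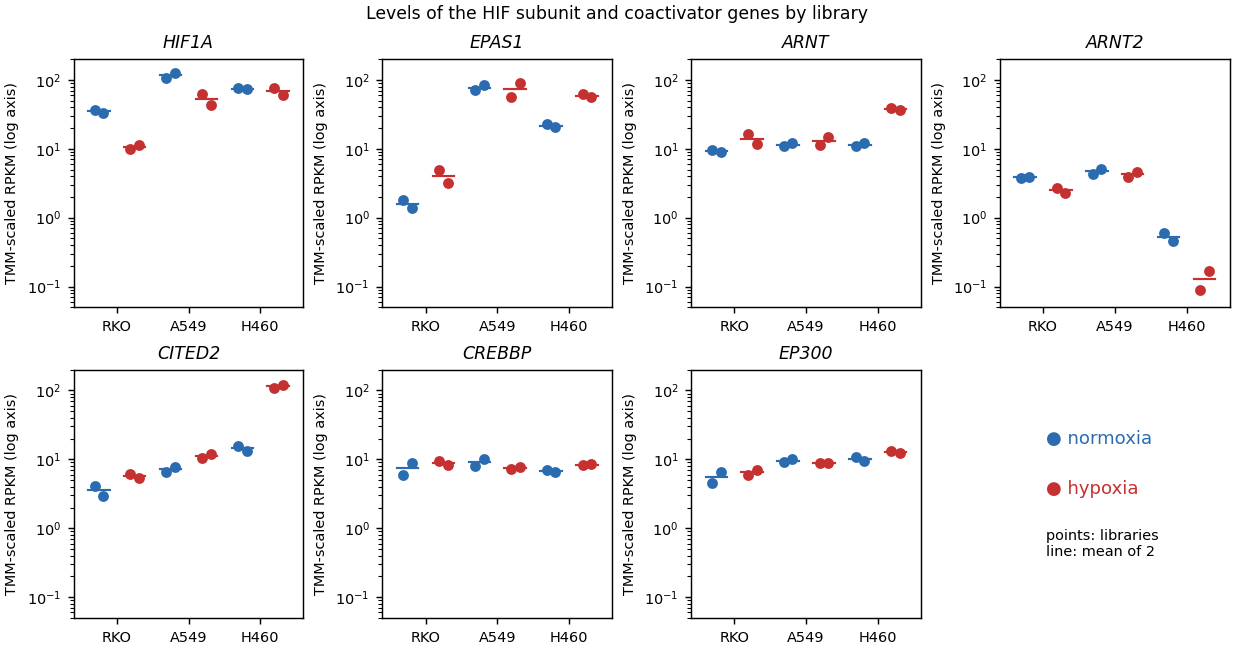
Level of 7 members in each library, as TMM-scaled RPKM on a shared log axis, by line (x axis) and oxygen condition (blue normoxia, red hypoxia). Points are libraries and short lines are means of 2. CITED2 stood highest in hypoxic H460 cells (110.2 and 119), EPAS1 lowest in RKO cells (1.38 to 4.95) and ARNT2 lowest in H460 cells (0.0901 to 0.595).

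HIF1A, on the plus strand of chromosome 14 (62162119-62214977, GRCh37), was the alpha subunit gene with the highest level in 11 of the 12 libraries, and EPAS1 was in the other. In RKO its level was 36.1 and 33.4 RPKM in normoxia and 10.1 and 11.5 in hypoxia. The A549 libraries had 105 and 128 in normoxia and 62.6 and 42.8 in hypoxia. H460 cells had 75.8 and 72.4 in normoxia and 75.1 and 61.0 in hypoxia. Both hypoxia libraries lay below both normoxia libraries in RKO and A549, whereas in H460 the groups overlapped. HIF1A fell in RKO by 1.75 ± 0.16 (SE) on the log2 scale (edgeR adjusted p = 7.71e-05), and only 0.39% of genes tested in RKO had a lower fold change. It fell in A549 by 1.16 ± 0.23 (edgeR adjusted p = 0.0494), with 0.863% of genes below it. In H460 the log2 fold change was -0.14 ± 0.11 (edgeR adjusted p = 0.247), near the middle of all genes, with 45.5% of them below. With library size scaling it was -0.50 in H460 (edgeR adjusted p = 0.000565), a fall under the 1.5-fold minimum. Whether HIF1A fell in H460 thus depended on the scaling.

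EPAS1, on chromosome 2 (46524541-46613842, plus strand), had the widest range of levels of the alpha subunits between lines. In RKO it was 1.83 and 1.38 RPKM in normoxia and 4.95 and 3.24 in hypoxia. A549 had much more, 70.1 and 83.6 in normoxia and 56.5 and 91.0 in hypoxia. H460 stood between them, with 22.8 and 20.7 in normoxia and 61.3 and 56.5 in hypoxia. The groups were separate in RKO and H460, and in A549 the hypoxia libraries lay on either side of the normoxia libraries. EPAS1 rose in RKO by 1.29 ± 0.25 on the log2 scale (edgeR adjusted p = 0.00281) and in H460 by 1.42 ± 0.09 (edgeR adjusted p = 9.18e-08). Its log2 fold change in A549 was -0.08, with a 95% confidence interval from -0.60 to 0.45. The normoxia order was A549, H460, RKO, and each step was called, with A549 over H460 by 1.82 ± 0.23 and RKO under H460 at -3.76 ± 0.26 on the log2 scale (edgeR adjusted p = 1.12e-05 and 8.89e-09). In hypoxia A549 and H460 were no longer called apart (0.32 ± 0.23, edgeR adjusted p = 0.213), with a 95% confidence interval from -0.16 to 0.81. Under library size scaling they were called apart (0.60, edgeR adjusted p = 0.0189).

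HIF3A, on chromosome 19 (46800303-46846690, plus strand), had 5 reads in all 12 libraries together. It was at 0 in 9 libraries and at no more than 2 reads in any of the other libraries. A count of 3 would have been between 0.0112 and 0.0198 RPKM, and HIF3A was under this in every library and was not tested. A limit of this kind covers counting error only.

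The balance of the alpha subunits was described within each library, from the deposited RPKM, where scaling between libraries has no effect. HIF1A made up 95.2% and 96.0% of summed alpha subunit RPKM in normoxic RKO libraries and 67.0% and 78.0% in hypoxic ones. In A549 the share was 60.0% and 60.4% in normoxia and 52.5% and 32.0% in hypoxia. In H460 it was 76.9% and 77.8% in normoxia and 55.0% and 51.9% in hypoxia. The share was lower in both hypoxia libraries than in both normoxia libraries of every line, although the member that changed differed, with a fall of HIF1A in A549, a rise of EPAS1 in H460 and both in RKO. EPAS1 exceeded HIF1A in 1 library, the A549 hypoxia replicate 2, where the ratio of HIF1A to EPAS1 was 0.470. The other A549 hypoxia library had a ratio of 1.11.

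**Figure D2:**
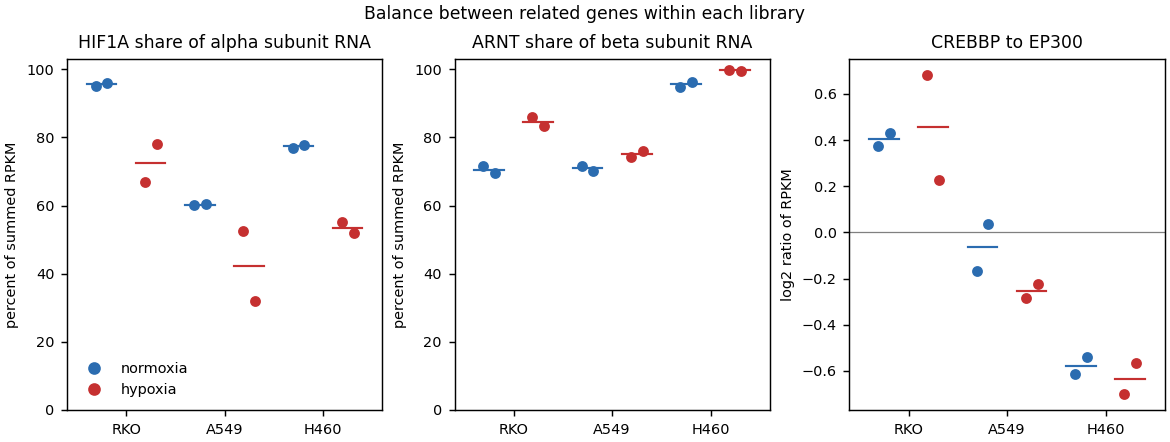
Share of HIF1A in summed RPKM of the alpha subunit genes (left, percent), share of ARNT in summed RPKM of ARNT and ARNT2 (middle, percent) and log2 ratio of CREBBP to EP300 RPKM (right) in each library. Points are libraries and short lines are means of 2. The HIF1A share was 60.0% to 96.0% in normoxia and 32.0% to 78.0% in hypoxia.

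ARNT, on chromosome 1 (150782181-150849244, minus strand), encodes the common partner of the alpha subunits and of the dioxin receptor. In RKO its level was 9.60 and 8.90 RPKM in normoxia and 16.2 and 11.5 in hypoxia. The A549 values were 10.9 and 12.01 in normoxia and 11.4 and 14.6 in hypoxia. Those of H460 were 10.9 and 12.1 in normoxia and 39.0 and 35.9 in hypoxia. The 3 lines lay close to each other in normoxia, between 8.90 and 12.1 RPKM, and none of the 3 pairs of lines was called apart (edgeR adjusted p = 0.117 to 0.980). ARNT rose in H460 by 1.69 ± 0.09 on the log2 scale (edgeR adjusted p = 2.22e-08), and 5.27% of genes tested there rose more. Its log2 fold change was 0.52 ± 0.18 in RKO (edgeR adjusted p = 0.0421), which is 1.44-fold and under the minimum. It was called there under library size scaling (0.60), in the fit of all libraries (0.59) and without hypoxia replicate 2 (0.76). In A549 it was 0.17 ± 0.19 (edgeR adjusted p = 0.702).

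ARNT2, on chromosome 15 (80696692-80890277, plus strand), encodes a second beta subunit best known from the nervous system. In RKO it was at 3.83 and 3.90 RPKM in normoxia and 2.67 and 2.31 in hypoxia. In A549 it was at 4.32 and 5.09 in normoxia and 3.93 and 4.63 in hypoxia. In H460 it was at 0.595 and 0.465 in normoxia and 0.0901 and 0.170 in hypoxia, from 110 and 104 reads in normoxia and 14 and 32 in hypoxia. H460 was thus low in both conditions, and its hypoxia libraries rest on few reads. ARNT2 fell in RKO by 0.70 ± 0.18 on the log2 scale (edgeR adjusted p = 0.0117) and in H460 by 2.00 ± 0.31 (edgeR adjusted p = 0.000111). In A549 the groups overlapped and the log2 fold change was -0.15 ± 0.20 (edgeR adjusted p = 0.750). A549 exceeded H460 in normoxia by 3.15 ± 0.23 on the log2 scale (edgeR adjusted p = 2.87e-08).

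ARNT made up 71.5% and 69.5% of the summed beta subunit RPKM in normoxic RKO libraries and 85.9% and 83.3% in hypoxic ones. In A549 the share was 71.6% and 70.2% in normoxia and 74.3% and 75.9% in hypoxia. H460 had 94.8% and 96.3% in normoxia and 99.8% and 99.5% in hypoxia. In each line the share of ARNT was higher in both hypoxia libraries. The summed alpha subunit RPKM exceeded the summed beta subunit RPKM in 11 of the 12 libraries, by 1.06-fold in an RKO hypoxia library up to 12.3-fold in an A549 normoxia library. The exception was RKO hypoxia replicate 1, at 0.793. Both hypoxia libraries of each line had a lower ratio than both of its normoxia libraries, with 2.72 and 2.82 in normoxic RKO, 6.95 and 7.78 in hypoxic A549, and 7.44 and 8.56 against 3.26 and 3.49 in H460.

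CITED2, on chromosome 6 (139693392-139695787, minus strand), had the largest rise of any member. In RKO its level was 4.17 and 2.92 RPKM in normoxia and 6.11 and 5.27 in hypoxia. In A549 it was 6.59 and 7.73 in normoxia and 10.5 and 11.8 in hypoxia. The H460 values were 15.6 and 13.4 in normoxia, against 110.2 and 119 in hypoxia. Both hypoxia libraries were above both normoxia libraries in each line. CITED2 rose in H460 by 2.97 ± 0.11 on the log2 scale (edgeR adjusted p = 1.54e-09), or 7.82-fold, and 1.36% of genes tested there rose more. In RKO it rose by 0.62 ± 0.25 (edgeR adjusted p = 0.0676), a call that was lost without normoxia replicate 2 (0.38) or hypoxia replicate 1 (0.57). In A549 the log2 fold change was also 0.62 ± 0.21, but with an edgeR adjusted p of 0.206 it was not called in the fit of that line, while it was in the fit of all libraries (0.64, edgeR adjusted p = 0.0469). In normoxia the levels stood in the order H460, A549, RKO, with A549 under H460 at -1.02 ± 0.18 and RKO under A549 at -1.02 ± 0.18 on the log2 scale (edgeR adjusted p = 0.000183 and 0.000172).

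The level of CITED2 relative to the summed RPKM of its partners CREBBP and EP300 was 0.397 and 0.187 in normoxic RKO libraries and 0.395 and 0.343 in hypoxic ones. In A549 it was 0.387 and 0.382 in normoxia and 0.658 and 0.715 in hypoxia. In H460 it was 0.875 and 0.838 in normoxia and 5.10 and 5.67 in hypoxia, the only group in which CITED2 RNA exceeded that of both coactivators together. HIF1A exceeded CITED2 in 10 of the 12 libraries, and the hypoxic H460 libraries, with ratios of HIF1A to CITED2 of 0.681 and 0.513, were the exceptions.

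CREBBP, on chromosome 16 (3775056-3930121, minus strand), and EP300, on chromosome 22 (41488614-41576081, plus strand), varied least of the 7 tested members. Over the 12 libraries CREBBP lay between 5.92 and 10.2 RPKM and EP300 between 4.56 and 13.4. In H460, CREBBP was at 7.07 and 6.50 RPKM in normoxia and 8.24 and 8.46 in hypoxia. EP300 there was at 10.8 and 9.46 in normoxia and 13.4 and 12.5 in hypoxia. Both hypoxia libraries were above both normoxia libraries for each gene. The log2 fold changes in H460 were 0.28 ± 0.09 for CREBBP and 0.34 ± 0.09 for EP300 (edgeR adjusted p = 0.0121 and 0.00615), folds of 1.22 and 1.26 that did not reach the minimum, and both changed sign with library size scaling (-0.07 and -0.01). In RKO the log2 fold changes of CREBBP and EP300 were 0.20 ± 0.20 and 0.16 ± 0.20 (edgeR adjusted p = 0.457 and 0.571), and the RKO hypoxia libraries of CREBBP, at 9.52 and 8.29 RPKM, overlapped those of normoxia, at 5.92 and 8.97. In A549 they were -0.32 ± 0.18 and -0.12 ± 0.17 (edgeR adjusted p = 0.422 and 0.762).

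The log2 ratio of CREBBP to EP300 within a library followed the line more than oxygen. It was between 0.23 and 0.68 in the 4 RKO libraries, between -0.28 and 0.04 in the 4 A549 libraries and between -0.70 and -0.54 in the 4 H460 libraries, so that the lines did not overlap. In normoxia EP300 was called lower in RKO than in A549 (-0.76 ± 0.17 on the log2 scale, edgeR adjusted p = 0.00112; -0.53 and not called without RKO normoxia replicate 1) and than in H460 (-0.85 ± 0.17, edgeR adjusted p = 0.000446). CREBBP was not called different between any pair of lines in either condition.

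**Figure D3:**
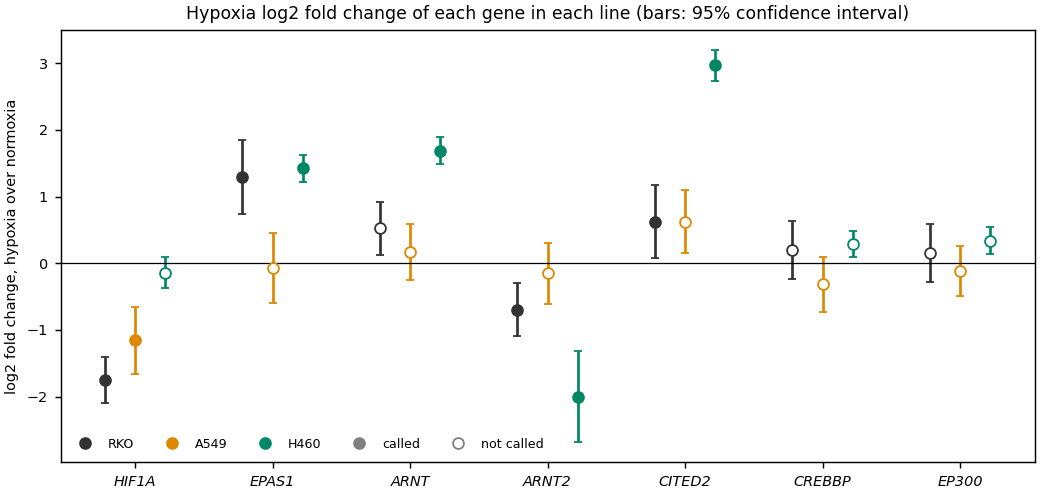
Log2 fold change of hypoxia over normoxia for 7 members in RKO, A549 and H460, with bars for the 95% confidence interval of the edgeR estimate. Filled points were called and open points were not. HIF1A lay at -1.75, -1.16 and -0.14, and CITED2 at 0.62, 0.62 and 2.97, in RKO, A549 and H460.

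Whether the hypoxia effect differed between lines was tested by the interaction of line and oxygen in a fit of all 12 libraries, called at an edgeR adjusted p under 0.1. One pair, RKO and A549, had 1 of 7 members that differed (EPAS1), where 14.6% of 15595 genes did. The pair of RKO and H460 had 4 (HIF1A, ARNT, ARNT2 and CITED2), where 37.6% of genes differed. For A549 and H460 it was 6, all but EP300, where 36% of genes differed. Of these 6, CREBBP had an edgeR adjusted p of 0.0957 and was not called under library size scaling (-0.34). The fall of HIF1A was larger in RKO than in H460 by a log2 difference of -1.57 ± 0.26 (edgeR adjusted p = 0.000609) and larger in A549 than in H460 by -1.02 ± 0.25 (edgeR adjusted p = 0.00936). RKO and A549 were not called apart in that fall (-0.55 ± 0.25, edgeR adjusted p = 0.200), although they were without A549 hypoxia replicate 2 (-0.80). For EPAS1, A549 differed from RKO (1.41 ± 0.33 for RKO minus A549, edgeR adjusted p = 0.0196) and from H460 (-1.50 ± 0.32 for A549 minus H460, edgeR adjusted p = 0.00394), while RKO minus H460 was -0.09 ± 0.33 (edgeR adjusted p = 0.904). For CITED2, H460 differed from both other lines, with log2 differences of -2.30 ± 0.25 for RKO minus H460 and -2.34 ± 0.25 for A549 minus H460 (edgeR adjusted p = 4.31e-05 and 5.56e-05), and RKO minus A549 was 0.05 ± 0.25 (edgeR adjusted p = 0.968). The interval of the last difference reached from -0.49 to 0.58.

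Members also differed in level between lines within a condition, at an adjusted p under 0.1 and a fold over 1.5. In normoxia RKO and A549 differed in 4 of 7 members, where 60.2% of genes differed. RKO and H460 differed in 5, where 61.9% of genes did, and A549 and H460 in 4, where 52.1% did. The hypoxia counts for the same pairs were 4, 6 and 3, beside 60.5%, 65.7% and 62.7% of genes. EP300 was no longer among the 6 under library size scaling (-0.57 for RKO minus H460). In both pairs with RKO, each member called was lower in RKO, except ARNT2, which was higher in RKO than in H460. For HIF1A the normoxia order was A549, H460, RKO, with A549 above H460 by 0.65 ± 0.18 on the log2 scale (edgeR adjusted p = 0.00629), a call lost without A549 normoxia replicate 2 (0.51). In hypoxia H460 stood first, but A549 and H460 were not called apart (-0.37 ± 0.18 for A549 minus H460, edgeR adjusted p = 0.0816), a fold of 1.29. Without A549 hypoxia replicate 1, in which HIF1A was higher and EPAS1 lower than in replicate 2, both genes were called apart between hypoxic A549 and H460 (-0.67 and 0.63).

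The HIF1A locus also holds antisense transcripts on the minus strand. HIF1A-AS2 (chromosome 14, 62213757-62215807) overlaps the 3′ end of the HIF1A gene by 1221 bases, and the reads had been counted by strand. In RKO it had 9 and 8 reads in normoxia and 298 and 127 in hypoxia, and in A549 8 and 21 in normoxia and 46 and 57 in hypoxia. In H460 it had 30 and 22 reads in normoxia and 183 and 260 in hypoxia. Hypoxia libraries were above normoxia libraries in each line. HIF1A-AS2 rose in H460 by 3.30 ± 0.25 on the log2 scale (edgeR adjusted p = 3.00e-07). In RKO the log2 fold change was 4.53 ± 0.49, but both normoxia libraries were under the 0.5 CPM filter. The gene passed that filter in RKO only through the 2 hypoxia libraries in which it was high, so no p-value is given there. With either RKO hypoxia library left out it no longer passed. In A549 the log2 fold change was 1.94 ± 0.52 (edgeR adjusted p = 0.125), not called in the line's own fit but called in the fit of all libraries (edgeR adjusted p = 0.0376) and without A549 normoxia replicate 2 or hypoxia replicate 1. HIF1A-AS1, at the 5′ end of HIF1A, overlaps it by 423 bases and had between 0 and 30 reads per library, too few for a test.

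**Figure D4:**
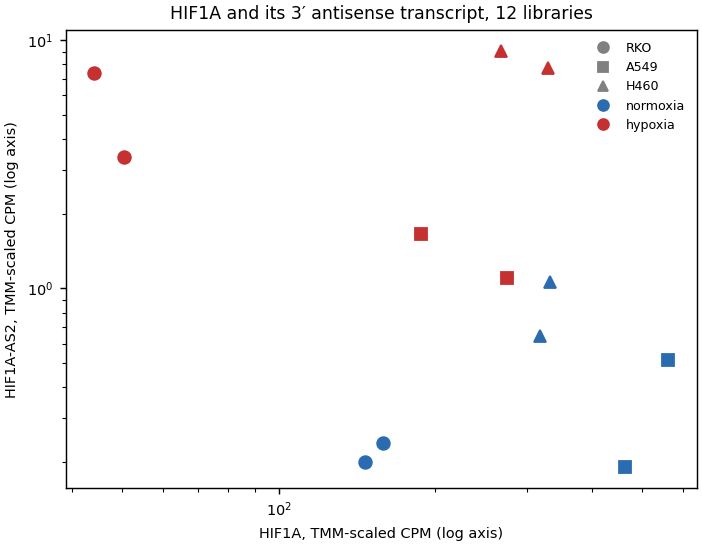
HIF1A (x axis) against HIF1A-AS2 (y axis) in the 12 libraries, both as TMM-scaled CPM (counts normalised to library size) on log axes. Circles are RKO, squares A549 and triangles H460, blue is normoxia and red hypoxia. HIF1A-AS2 was at 0.191 to 1.06 in normoxia and at 1.10 to 9.04 in hypoxia. Hypoxic RKO libraries combine the lowest HIF1A (44.2 and 50.4) with 7.34 and 3.38 of the antisense transcript. Hypoxic H460 libraries had the most of it, 7.72 and 9.04, with HIF1A at 330 and 268. Hypoxic A549 libraries had 1.10 and 1.66 of it, with HIF1A at 275 and 188.

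Related genes of the pathway were described by counts of calls under the same rule, against the shares of all genes given above. Of 5 hydroxylase and VHL genes, RKO had 1 called higher of 4 tested, A549 1 of 5 and H460 2 of 4, with 0 lower in each. EGLN1, the main prolyl hydroxylase in normoxia, rose in RKO by 1.15 ± 0.19 and in H460 by 1.55 ± 0.09 on the log2 scale (edgeR adjusted p = 0.00135 and 3.52e-08), and had 0.21 ± 0.19 in A549 (edgeR adjusted p = 0.612). EGLN3, an inducible prolyl hydroxylase, rose in A549 by 3.43 ± 0.39 and in H460 by 2.45 ± 0.19 (edgeR adjusted p = 0.00538 and 2.93e-07). In RKO it was too low to be tested. HIF1AN, the asparaginyl hydroxylase that blocks binding of the alpha subunits to CBP and p300, had a log2 fold change of 0.42 ± 0.09 in H460, or 1.34-fold, under the minimum. EGLN2, another prolyl hydroxylase, had -0.38 ± 0.35 in A549 and was called in neither RKO nor A549. In H460 it was too low to be tested.

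Of 14 relatives with bHLH-PAS domains or of the NCOA coactivator family, 11 were tested in each line. The calls were 2 higher and 0 lower in RKO, 0 in either direction for A549, and 5 higher and 1 lower in H460. The 4 named by the lowest adjusted p were all from H460, where NCOA3, a p160 coactivator, rose by 0.92 ± 0.09 on the log2 scale and ARNTL, the circadian factor BMAL1, by 0.82 ± 0.11. NPAS2, a partner of BMAL1, rose by 0.70 ± 0.09 and AHR, the dioxin receptor that pairs with ARNT, by 0.65 ± 0.09 (edgeR adjusted p = 1.67e-06 to 2.71e-05 for the 4 genes). Under library size scaling all 4 fell under the fold minimum, at 0.56, 0.47, 0.35 and 0.30, and without H460 normoxia replicate 1 AHR did, at 0.56.

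Of 12 other cofactors, 12 were tested in RKO, with 1 called higher and 1 lower, and 11 in A549, with 0 called. H460 had 4 higher and 3 lower of 11. CDK19, a Mediator kinase, rose in H460 by 2.44 ± 0.14 on the log2 scale, its paralogue CDK8 by 1.03 ± 0.11 and the Mediator subunit gene MED12 by 1.00 ± 0.09. SMARCA2, an ATPase of the SWI/SNF complex, fell there by 0.95 ± 0.09 (edgeR adjusted p = 2.67e-08 to 6.67e-06 for the 4 genes). CDK8 went the other way in RKO, at -0.51 ± 0.18 (edgeR adjusted p = 0.0464), under the fold minimum. CDK19 and MED12 had 0.44 ± 0.24 and 0.16 ± 0.16 in RKO (edgeR adjusted p = 0.180 and 0.455). As a reference for the response, RKO had 10 of 13 tested HIF target genes called higher, A549 9 of 14 and H460 12 of 14, with 1, 0 and 1 lower. Their median log2 fold changes were 1.60, 1.76 and 2.33. NDRG1, a stress response gene, rose in the 3 lines by 4.28 ± 0.48, 4.73 ± 0.43 and 6.07 ± 0.13, and ANKRD37 rose in RKO by 3.10 ± 0.39 and in H460 by 5.30 ± 0.13. ADM, the gene of the peptide adrenomedullin, rose in RKO by 1.96 ± 0.20 and in H460 by 3.28 ± 0.10. In A549 the log2 fold changes of ANKRD37 and ADM were 1.86 ± 0.48 and 0.67 ± 0.31 and were not called (edgeR adjusted p = 0.111 and 0.324), but both were without A549 hypoxia replicate 1 (2.43 and 1.10), and ANKRD37 also with DESeq2 and in the fit of all libraries. The edgeR adjusted p of the calls ran from 1.11e-10 to 0.00441.

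**Figure D5:**
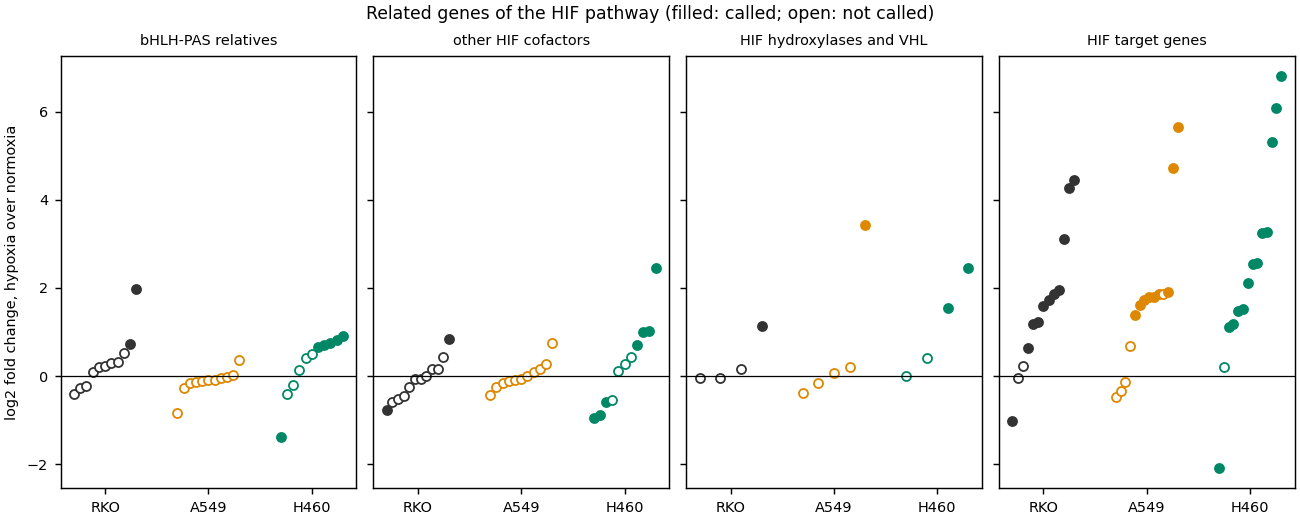
Log2 fold change of hypoxia over normoxia for the tested genes of 4 lists (panels) in RKO, A549 and H460, 1 point per gene, sorted within each line. Filled points were called and open points were not. HIF target genes had medians of 1.60, 1.76 and 2.33, against 0.23, -0.09 and 0.50 for the bHLH-PAS relatives.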

How the data were processed

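Poly(A)+ RNA was sequenced from 2 replicates of each line and oxygen condition. According to the study's methods and the submitters' processing notes, the authors made strand-specific single-end libraries, trimmed low-quality read ends, aligned them with TopHat2 2.0.13 and Bowtie2 2.2.3.0 to GRCh37/hg19, removed alignments of low mapping quality with SAMtools and counted exon reads by strand with HTSeq 0.6.1. The deposited counts are unnormalized reads per gene, and the RPKM values deposited by the authors equal the count divided by exon length and by the total of counted reads. The mapping quality filter removes reads that fit several places. Coordinates of genes are GRCh37 as deposited, 1-based.

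The members and gene lists were chosen with earlier results of these data known. Genes over 0.5 CPM in at least 2 libraries were tested by the quasi-likelihood method of edgeR 4.0.16 (R 4.3.3), with TMM factors and Benjamini-Hochberg adjustment over all genes tested, in place of the DESeq2 fit of the study, whose thresholds were kept, per line for hypoxia and over all 12 libraries for differences between lines, whose calls of the hypoxia effect had no fold minimum. The ± values of log2 differences are standard errors. Within-library ratios were not tested. All members were named, with the 3 genes most like HIF1A, EPAS1 and CITED2 over libraries and up to 4 genes of each list by lowest adjusted p, of which a HIF target gene is not reported here. Replicates differed by more than sampling noise in all 6 groups. The chi-square per degree of freedom between replicates was 40.8 in normoxia and 47.7 in hypoxia for RKO. It was 75.9 and 72.1 for A549 and 13.5 and 10.1 for H460, so counts of calls in different lines rest on unlike spreads. The p-values set a difference against the spread within groups of 2 replicates, which edgeR estimates with information shared between genes. The edgeR fit of hypoxia per line was tested on simulated counts, and the other steps were not. Alternatives were DESeq2 1.42.0, RLE factors, library size scaling, other filters and thresholds, a joint fit, a replicate block, limma 3.58.1 run on log2 RPKM (pseudocount 0.1 or 1), and each library left out.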

Additional observations from a re-analysis of the deposited data

Results flagged for a closer look

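The hypoxia effect of 6 members differed between lines in a test of the difference itself, 11 differences in all, given here as log2 differences of the hypoxia effect. EPAS1 had 1.41 for RKO minus A549. For RKO minus H460 it was -1.57 for HIF1A, -1.12 for ARNT, 1.36 for ARNT2 and -2.30 for CITED2. For A549 minus H460 it was -1.02 for HIF1A, -1.50 for EPAS1, -1.52 for ARNT, 1.85 for ARNT2, -2.34 for CITED2 and -0.60 for CREBBP. The edgeR adjusted p of the difference was 0.0957 for CREBBP and at most 0.0196 for the other differences. Of all 15595 genes tested, 14.6% differed for RKO and A549, 37.6% for RKO and H460 and 36% for A549 and H460. The H460 comparisons also differ in medium, which cannot be told apart from the line. The call for CREBBP was lost under library size scaling (-0.34), and in 7 of 8 fits that left out 1 library of either line.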

How the results depend on the processing

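The counts of members called higher or lower in hypoxia were the same in each line under DESeq2, RLE factors, the other filters of the edgeR fit and limma at a pseudocount of 0.1 with the filter. In RKO the 2 higher calls became 1 with a fold minimum of 2, with an adjusted p under 0.05 and with limma on log2 RPKM without a filter, and the 2 lower calls became 1 with a fold minimum of 2 and with limma at a pseudocount of 1 or without a filter. The higher calls became 3 (ARNT added) with no fold minimum, under library size scaling and in the joint fit. In A549 the count of higher calls went from 0 to 1 (CITED2) in the joint fit and with the replicate block, and the lower call of HIF1A was lost (0) with limma without a filter. In H460 the 3 higher calls became 5 with no fold minimum, and the lower call of ARNT2 was lost (0) with limma at a pseudocount of 1, which damps low levels. The cause of these changes was otherwise not tested. CREBBP and EP300 changed sign in H460 under library size scaling (-0.0678 and -0.0140), limma at a pseudocount of 0.1 with or without the filter (-0.0676 and -0.0119) and at 1 (-0.0599 and -0.0111). EPAS1 changed sign for RKO minus H460 under library size scaling (0.30). With the replicate block, level differences between lines compared replicate 1 of each line and not the group means. The EPAS1 value there for hypoxic A549 minus H460 (-0.0109) therefore does not show a dependence on the block.

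With 1 library left out, in which case the lone sample of a group was assumed to vary like the rest, the counts ranged from 1 to 3 (higher) and 2 to 2 (lower) in RKO, from 0 to 0 and 1 to 1 in A549 and from 3 to 3 and 1 to 1 in H460. The count of members called between lines also moved for RKO and A549, in the hypoxia effect and in the normoxia level. For A549 and H460 it moved in the effect and in the level of either condition. The counts for RKO and H460 stayed the same. Uncalled values that changed sign ranged from -0.0692 to 0.523 for CREBBP and -0.0880 to 0.448 for EP300 in RKO, -0.447 to 0.214 for EPAS1 and -0.0111 to 0.323 for ARNT in A549 and -0.275 to 0.0237 for HIF1A in H460. Between lines they ranged from -0.42 to 0.21 for the EPAS1 effect (RKO minus H460), -0.19 to 0.33 for the CITED2 effect (RKO minus A549) and -0.0563 to 0.629 for EPAS1 in hypoxia (A549 minus H460).

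Replicate numbers are shared between conditions but name no common batch. Within a line, replicate differences in normoxia and hypoxia correlated at 0.377, 0.400 and 0.187 over genes, with 2 pairs per line, and among the members the replicate block changed the hypoxia call of CITED2 in A549 alone (0.63, edgeR adjusted p = 0.0184), and it also called HIF1A-AS2 (2.00, edgeR adjusted p = 0.00104), ANKRD37 (1.71) and ADM (0.60) there. With 2 replicates per group, differences under the fold minimum and genes of few reads, such as HIF3A and ARNT2 in H460, limit what can be seen.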

Other observations

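Over the 12 libraries, the genes whose log2 level was most like that of HIF1A were PQBP1, UTP14A and DNAJC7 (Pearson r = 0.985, 0.963 and 0.955 over 12 libraries). For EPAS1 they were IQSEC2, STXBP2 and ABI3BP (0.992, 0.992 and 0.990), and for CITED2 EXOC1, HP1BP3 and SLC50A1 (0.988, 0.986 and 0.978). The 12417 genes compared had a mean of at least 100 reads. The libraries fall into 3 lines and 2 conditions, so these values describe the shared order of 6 groups.

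Among the 15595 genes over the minimum, the place of a member by its level shifted widely for some members and little for others. CITED2 exceeded 40.4% of genes in normoxic RKO cells and 96.2% in hypoxic H460 cells. HIF1A exceeded 96.9% in normoxic A549 cells and 60.7% in hypoxic RKO cells, and EPAS1 94.9% and 32% in the highest and lowest groups. CREBBP stayed between 50% and 57.1%.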
